A study of Mus musculus with 4 samples.

Results

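Genes of the WAP, Kazal, serpin and cystatin families of protease inhibitors were followed in the mouse prostate. They were chosen by gene name on the array, as the Wfdc, Spink, Serpin and Cst genes with a number, together with Slpi and Eppin, and Spink3 was left out. The rule found 103 probes for 81 genes, out of 27974 genes with a value on the array, and uses names alone. The spot of Spink5, one of the 81, was marked as an outlier on the array of C57BL/6 after TmT, so Spink5 had no value there and 80 genes carried values on all 4 arrays. TRAMP mice, in which the rat probasin promoter, active in prostate epithelium, drives the early genes of SV40, were compared with C57BL/6 mice. Both lines were 8 weeks old, ate the same defined diet, went without food overnight and were gavaged either with 600 mg/kg of TmT, a mixture of tocopherols (vitamin E) in which gamma-tocopherol predominates, or with olive oil. Prostates were frozen 12 hours after the dose. The 4 groups were thus TRAMP after TmT, TRAMP after oil, C57BL/6 after TmT and C57BL/6 after oil, with 3 mice in each. Each group has 1 array, and the labels leave unsaid whether RNA of a single animal or of pooled animals was applied to it, and do not give the strain on which the TRAMP mice were bred. A difference between the lines is therefore not one that can be assigned to the transgene.

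Protease inhibitors bind the active site of a protease and stop it. WAP and Kazal inhibitors are small secreted proteins that act mainly on serine proteases of leukocytes, sperm and epithelia, and several WAP proteins also kill bacteria. Serpins are larger and trap their target by changing shape, while cystatins block cysteine proteases of the cathepsin type. In the male tract these proteins are known from the fluid of the prostate, seminal vesicle and epididymis, where they control the proteases of semen. The name of secreted inhibitors does not cover every member: most serpins of clade B stay inside the cell, Serpinh1 (Hsp47) is a collagen chaperone of the endoplasmic reticulum, Serpinb5 (maspin) and Serpinf1 inhibit no known protease, and Serpina6 and Serpina7 carry hormones.

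WAP genes gave the widest differences between the lines that kept 1 direction under both gavages, and these genes lie in 1 cluster. On mouse build mm9, 9 of the 10 WAP genes with values have their probes on chromosome 2 between 164003763 and 164556917, within 553 kb, and the tenth, Wfdc1, lies on chromosome 8. The promoters of Wfdc12, Wfdc15b and Wfdc3, genes of this cluster, are shown. The first was higher in TRAMP, the second stayed within 2-fold and the last was lower. The promoter of Serpinb11 is shown because its difference after oil was among the widest and had the opposite sign after TmT. Each run holds the 250 bases before the transcription start, read 5′ to 3′ on the gene's strand, from RefSeq on GRCm38.p6. Wfdc12 is at chr2:164190559-164190808, Wfdc15b at chr2:164221664-164221913 and Wfdc3 at chr2:164743268-164743517, all on the minus strand, and Serpinb11 is at chr1:107362064-107362313 on the plus strand. Capitals mark matches to 4 motifs: AGAACA or TGTTCT (the half-site of the androgen receptor), TATAAA on the gene's strand, CCAAT or ATTGG, and TGANTCA (the AP-1 site, which reads the same on both strands).
Wfdc12: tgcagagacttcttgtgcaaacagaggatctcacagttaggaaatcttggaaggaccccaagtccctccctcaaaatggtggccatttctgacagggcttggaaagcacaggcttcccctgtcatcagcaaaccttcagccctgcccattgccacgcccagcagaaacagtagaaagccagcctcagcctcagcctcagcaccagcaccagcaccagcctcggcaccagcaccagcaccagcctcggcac
Wfdc15b: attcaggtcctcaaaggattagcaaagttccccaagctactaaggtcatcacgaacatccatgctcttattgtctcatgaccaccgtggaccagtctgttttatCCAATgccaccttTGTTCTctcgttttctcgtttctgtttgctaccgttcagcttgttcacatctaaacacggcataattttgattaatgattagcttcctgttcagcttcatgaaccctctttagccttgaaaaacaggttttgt
Wfdc3: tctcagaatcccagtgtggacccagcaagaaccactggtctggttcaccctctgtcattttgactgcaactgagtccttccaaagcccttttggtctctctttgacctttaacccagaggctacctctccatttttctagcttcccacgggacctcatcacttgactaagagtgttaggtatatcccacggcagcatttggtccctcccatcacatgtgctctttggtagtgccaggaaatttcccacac
Serpinb11: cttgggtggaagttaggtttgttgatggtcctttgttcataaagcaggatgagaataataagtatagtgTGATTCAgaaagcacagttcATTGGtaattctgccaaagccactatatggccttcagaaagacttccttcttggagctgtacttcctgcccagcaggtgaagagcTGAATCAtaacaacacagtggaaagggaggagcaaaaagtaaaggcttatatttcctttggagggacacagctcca
Wfdc12 and Wfdc3 held none of these letters in the window, and neither did Slpi or Eppin, the other WAP promoters searched one by one. Wfdc15b held TGTTCT from base -133 and CCAAT from base -146, counted back from the start. Serpinb11 held ATTGG from base -161 and TGANTCA from bases -181 and -76. Among 32851 mouse promoters of this length, 16.1% held the androgen receptor half-site, 7.59% TATAAA, 33.9% CCAAT and 6.75% TGANTCA. Among 73 promoters of 61 inhibitor genes the shares were 23.3%, 17.8%, 23.3% and 16.4% in the same order. Many of these genes are close copies of each other, so their promoters are not independent, and a match is a string of letters and not a measured binding site.

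Signals were taken as the scanner's processed intensity, on a log2 scale, minus the log2 of the array's 75th percentile, so that 0 is the 75th percentile of an array and values are called scaled log2 signals below. A probe's signal depends on its own sequence, and levels are compared only between arrays and not between genes. The arrays differed in sensitivity: 63.9% of 43379 spots were well above background for TRAMP after TmT, 70.4% for TRAMP after oil, 68.1% for C57BL/6 after TmT and 74.1% for C57BL/6 after oil, and the 75th percentiles of intensity were 71.3, 139, 118 and 161. Of the 80 inhibitor genes, 43, 49, 47 and 52 were well above background on these arrays, against 63.8%, 69.8%, 67.7% and 73.3% of all genes. A gene that was dim on the array of TRAMP after TmT can therefore lie closer to its level elsewhere than the flag implies, and such pairs are given only as a bound, written as at least N-fold. Differences between 2 arrays carry the scanner software's error of the spots (±), which covers the reading of a spot and not the spread between mice. The number of arrays limits the precision, and no p-value exists for a pair.

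Detection divided the families. All 10 WAP genes were well above background on at least 1 array, 7 of them on all 4. Of 6 Kazal genes, 4 were detected on all arrays and 2 on none. Clade A serpins, the family of alpha-1-antitrypsin, had 7 of 20 genes on all arrays, 6 on some and 7 on none. For clade B the counts were 12, 2 and 11 of 25, and for clades C to I they were 7, 1 and 2 of 10. Of 9 cystatins only Cst3 and Cst13 were detected on all arrays and Cst6 on 3, while the other 6, among them the epididymal genes Cst8, Cst11 and Cst12, were dim on every array. Among the dim clade A genes were Serpina1b and Serpina1d, which encode copies of alpha-1-antitrypsin, and among the dim clade B genes was Serpinb2, an inhibitor of urokinase. A dim probe sets no limit on the transcript.

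The tissue on the arrays was read from marker lists. Signals of a list were summed on a linear scale, in multiples of the 75th percentile. The 10 prostate secretory genes summed to 518 in TRAMP after TmT and 244 in TRAMP after oil, against 1024 in C57BL/6 after TmT and 807 in C57BL/6 after oil, and all 10 were above background on every array. The 8 seminal vesicle genes were also above background on all arrays, and their sums lay between 1957 and 2224. Single genes moved both ways beneath these sums: in TRAMP, 2 of the 8 were at least 2-fold higher after TmT (Svs2 at 1.09 and Svs7 at 1.05, log2) and 3 at least 2-fold lower (Sva at -3.62, Svs1 at -2.17 and Svs3a at -2.15). Among these secretory genes Tgm4, the prostate transglutaminase, had scaled log2 signals of 6.54 and 3.90 in TRAMP after TmT and oil, against 8.11 and 8.01 in C57BL/6 after TmT and oil. Adipocyte genes summed to 248 in TRAMP after oil and to between 23.1 and 43.8 on the other arrays. Fibroblast genes summed to 39.8 in TRAMP after oil and to between 77.7 and 94.3 on the others. Of 9 epididymis and vas deferens genes only Crisp1 and Defb1 were above background, and Lcn5, Lcn8, Adam7, Cst11, Defb12, Rnase10 and Spint4 were dim on all arrays. In bulk tissue fewer cells of a type and less RNA per cell cannot be told apart.

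**Figure D1:**
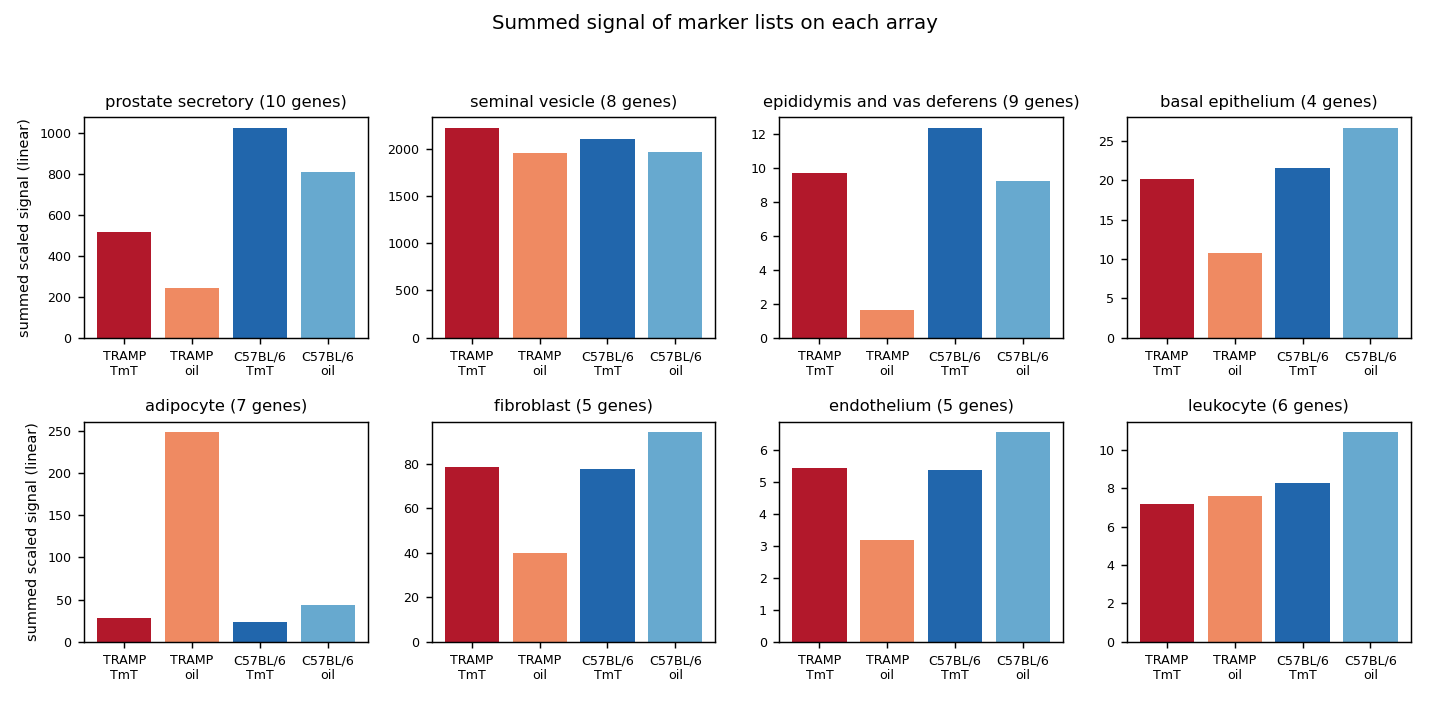
Summed scaled signal of 8 cell type marker lists on each array, on linear axes that start at 0, 1 bar per array (n = 1 array per group). The prostate secretory sum was lower on both TRAMP arrays, and the adipocyte sum stood at 248 for TRAMP after oil, against at most 43.8 elsewhere.

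The first question was how the inhibitors differed between TRAMP and C57BL/6 mice after oil. Of 49 inhibitor genes above background on both arrays, 5 were at least 2-fold higher in TRAMP (7.74% of all measured genes were) and 4 at least 2-fold lower (7.84% of all). Together this was 18.4% of the measured members, near the 15.6% of all genes. The median of the members was -0.30 and that of all genes -0.07, and 37 of the 49 values were below 0. The share of all genes below 0 was not counted. With another background correction (normexp) the members' median was 0.045 and that of all genes 0.048, nearly the same. After TmT, 40 genes were above background on both arrays, 6 were at least 2-fold higher in TRAMP (8.45% of all genes) and 4 at least 2-fold lower (6.09% of all). That was 25.0% of the members measured, against 14.5% of all genes, with 20 values above 0 and 20 below. With normexp fewer inhibitors were at least 2-fold higher in TRAMP, after oil and after TmT alike. The share of all genes was not counted with normexp, so these counts show nothing particular to the inhibitors. The pairs after oil and after TmT share no array. Of 39 genes above background on all 4 arrays, Wfdc12 alone was at least 2-fold higher in TRAMP both times (2.85% of all genes were), and Wfdc3, Serpinb1a and Serpini1 were at least 2-fold lower both times (1.66% of all).

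Wfdc12 encodes a small WAP protein with antibacterial activity. Its scaled log2 signal was 0.87 in TRAMP after TmT and 1.52 in TRAMP after oil, against -1.60 in C57BL/6 after TmT and -0.46 in C57BL/6 after oil. Both TRAMP arrays lay above both C57BL/6 arrays, by 2.46 ± 0.21 after TmT and by 1.98 ± 0.20 after oil. Slpi, the inhibitor of neutrophil elastase and cathepsin G, had -0.24 and 0.22 in TRAMP after TmT and oil, against -2.81 and -0.74 in C57BL/6 after TmT and oil. The TRAMP values were again the higher ones, but the difference was 2.57 ± 0.23 after TmT and 0.96 ± 0.20 after oil, just under 2-fold. A further Slpi probe was dim on every array. With normexp the differences after TmT were 0.04 for Wfdc12 and 0.04 for Slpi. They were 1.42 for Wfdc12 and 1.10 for Slpi when 27 spots with a very bright local background were left out before normexp, a choice made after seeing the data.

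Eppin, a WAP protein with an added Kunitz domain that coats sperm, had -2.92 in TRAMP after TmT and -2.09 in TRAMP after oil, against -4.19 in C57BL/6 after oil, and it was not well above background in C57BL/6 after TmT. The difference after oil was 2.09 ± 0.28, and after TmT Eppin was at least 3.13-fold higher in TRAMP. Wfdc6a, its neighbour in the cluster, gave almost the same series. It had -2.97 and -2.40 in TRAMP after TmT and oil, against -4.19 in C57BL/6 after oil, and was dim in C57BL/6 after TmT. It was 1.78 ± 0.30 higher in TRAMP after oil and at least 3.03-fold higher after TmT. With normexp the differences after oil were 0.67 for Eppin and 0.41 for Wfdc6a, both under 2-fold. Wfdc12, Slpi, Eppin and Wfdc6a each had their lowest signal on the array of C57BL/6 after TmT.

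Wfdc3, another WAP protein, ran the other way. Its scaled log2 signal was 2.48 in TRAMP after TmT and 0.36 in TRAMP after oil, against 5.63 in C57BL/6 after TmT and 4.19 in C57BL/6 after oil. All 4 arrays stood apart, and TRAMP minus C57BL/6 was -3.15 ± 0.20 after TmT and -3.83 ± 0.20 after oil. The second Wfdc3 probe was above background in C57BL/6 after oil only, so the difference rests on 1 probe. The prostate secretory sum was lower on the same 2 arrays, and its part in the Wfdc3 difference was not tested.

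The other WAP genes stayed within 2-fold between the lines. Wfdc15b, a further antibacterial WAP protein, had 4.22 and 3.49 in TRAMP after TmT and oil, against 3.99 and 4.46 in C57BL/6 after TmT and oil, and its difference after oil was -0.97. Wfdc2 (HE4, a serum marker of ovarian cancer in humans) had 2.16 and 1.22 in TRAMP after TmT and oil, against 2.07 and 1.75 in C57BL/6 after TmT and oil. Wfdc15a lay between -0.50 and 0.00 on the 4 arrays. Wfdc1 (ps20, a growth inhibitor first known from prostate stroma) had -2.32 and -2.90 in TRAMP after TmT and oil, against -2.71 and -2.13 in C57BL/6 after TmT and oil. Wfdc5 was dim in TRAMP after TmT and lay between -3.54 and -2.74 on the other arrays.

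**Figure D2:**
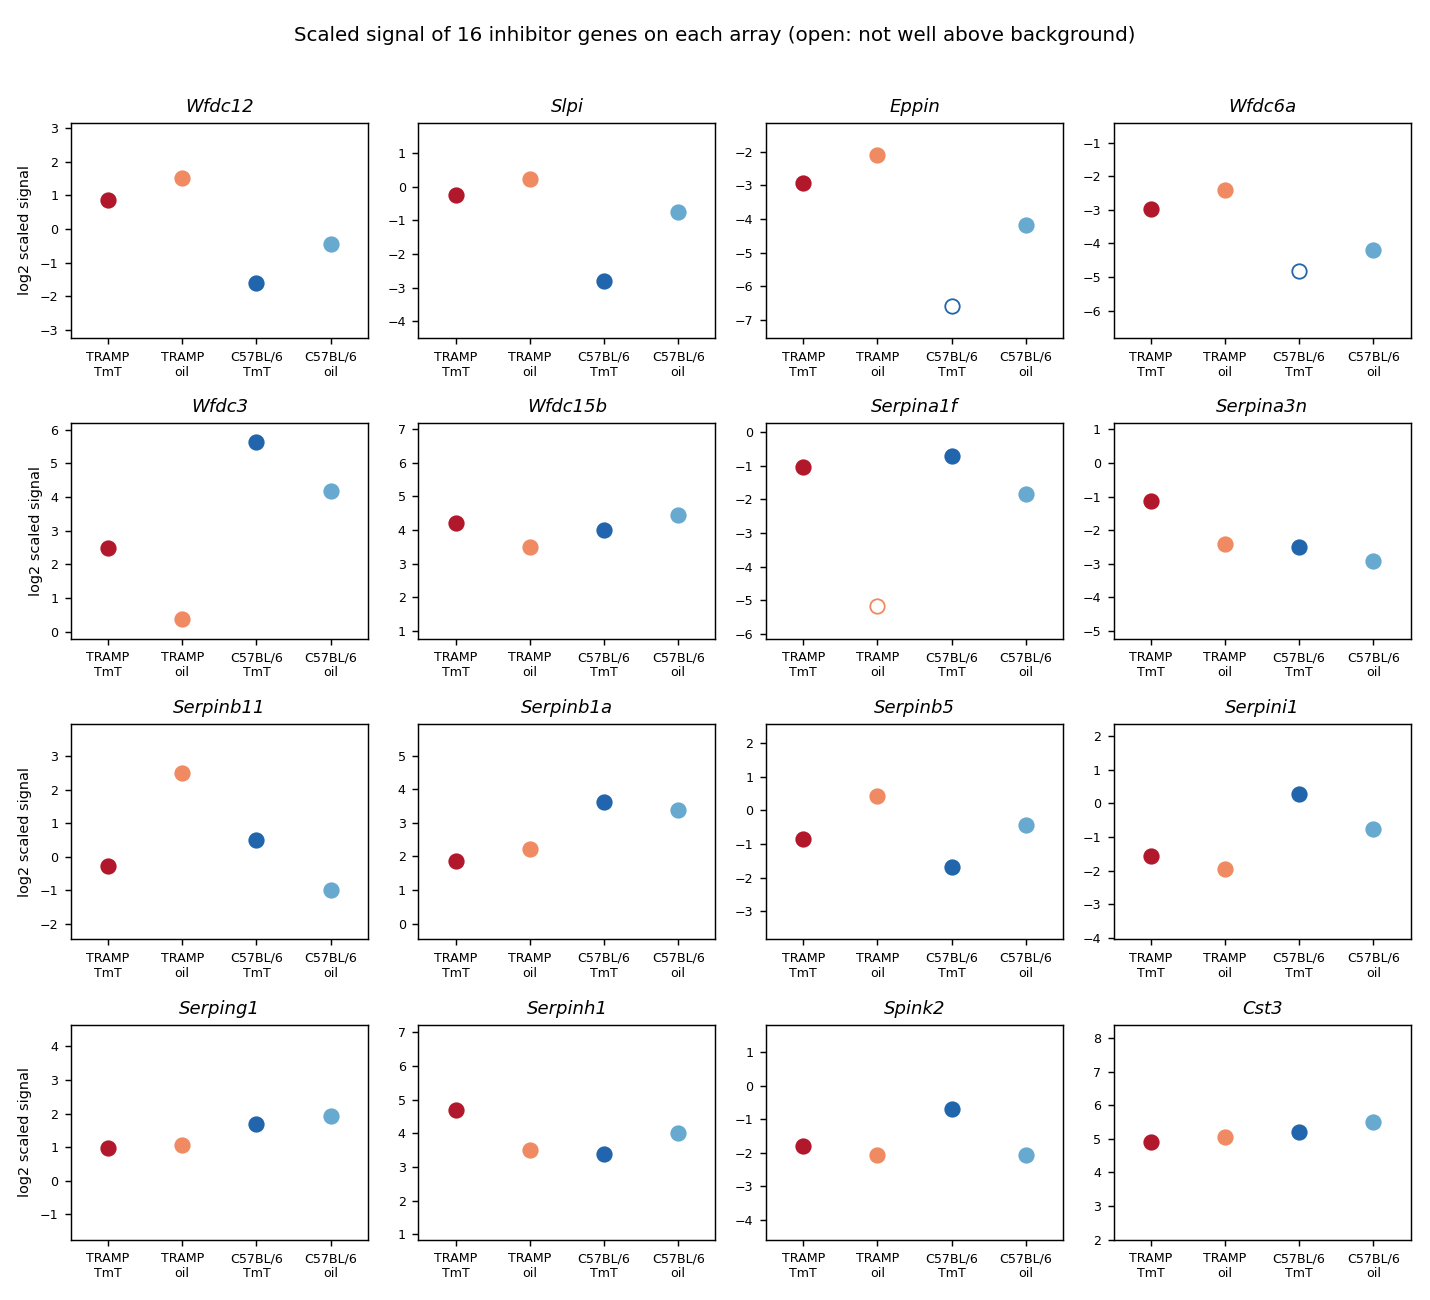
Scaled log2 signal of 16 inhibitor genes on each of the 4 arrays (n = 1 array per group; every panel spans the same number of log2 units at its own level). Open circles are values not well above background. Wfdc12 and Slpi were higher on both TRAMP arrays, Wfdc3 was lower on both, and Serpinb11 stood highest in TRAMP after oil, at 2.48.

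Serpins lower in TRAMP under both gavages included an intracellular and a neuronal member. Serpinb1a, which inhibits neutrophil elastase and cathepsin G inside leukocytes and epithelia, had 1.86 and 2.24 in TRAMP after TmT and oil, against 3.62 and 3.39 in C57BL/6 after TmT and oil. The 2 lines did not overlap, with differences of -1.76 ± 0.20 after TmT and -1.15 ± 0.20 after oil. Serpini1 (neuroserpin, an inhibitor of tissue plasminogen activator) had -1.57 and -1.94 in TRAMP after TmT and oil, against 0.27 and -0.77 in C57BL/6 after TmT and oil. TRAMP minus C57BL/6 was -1.84 ± 0.22 after TmT and -1.17 ± 0.21 after oil. With normexp these Serpini1 differences were -0.015 after TmT and -0.53 after oil, and the Serpinb1a difference after TmT was -0.67. Without the bright spots they were -0.86 for Serpini1 and -1.80 for Serpinb1a after TmT. Serping1, the inhibitor of complement C1, had 0.98 and 1.05 in TRAMP after TmT and oil, against 1.69 and 1.92 in C57BL/6 after TmT and oil, within 2-fold. Leukocyte marker genes summed to 7.19 and 7.58 in TRAMP after TmT and oil, against 8.28 and 10.9 in C57BL/6 after TmT and oil, and their part in these values was not tested.

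In clade A most differences past 2-fold between the lines appeared under 1 gavage, and Serpina3b was dim on an array of the other pair. Serpina3n, an acute-phase serpin that inhibits granzyme B in mice, had -1.13 in TRAMP after TmT, -2.40 in TRAMP after oil, -2.49 in C57BL/6 after TmT and -2.91 in C57BL/6 after oil. The array of TRAMP after TmT stood apart, and the lines differed by 1.36 ± 0.23 after TmT and 0.51 after oil. Serpina3m, its close relative, had -1.50 and -2.40 in TRAMP after TmT and oil, against -3.16 and -2.13 in C57BL/6 after TmT and oil, a difference of 1.66 ± 0.25 after TmT and -0.27 after oil. Serpina3b was 1.65 ± 0.27 higher in TRAMP after oil. After TmT it was dim in C57BL/6, and its bound of 2.27-fold higher in TRAMP rests on that dim reading. The spot error of that pair was 0.50 log2 units, so a difference past 2-fold was not settled. With normexp the differences after TmT were 0.04 for Serpina3n and 0.04 for Serpina3m, and that of Serpina3b after oil was 0.41. Without the bright spots Serpina3n had 0.65 and Serpina3m 0.63 after TmT. Serpina6, the carrier of corticosteroids in blood, was lower in TRAMP, with differences of -1.07 ± 0.21 after oil (-0.47 with normexp) and -0.65 after TmT. The Serpina3 and Serpina1 genes are near-identical copies in a cluster of 799 kb on chromosome 12, and a probe of one can bind transcripts of another. Liver is the main source of these serpins in plasma. Its 6 marker genes summed to at most 0.32 times the 75th percentile, and at most 3 of them were above background on any array. Dim probes set no limit on the transcripts, and the part of liver in these values was not tested.

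Serpina1f, a relative of alpha-1-antitrypsin, was dim on the array of TRAMP after oil alone. It had -1.05 in TRAMP after TmT, against -0.72 in C57BL/6 after TmT and -1.86 in C57BL/6 after oil. It was at least 8.00-fold lower in TRAMP after oil, and the difference after TmT was -0.33 ± 0.21. Crisp1, a secretory protein of the epididymis, was lowest on the same array, with 2.93 in TRAMP after TmT and -0.28 in TRAMP after oil, against 2.84 in C57BL/6 after TmT and 2.20 in C57BL/6 after oil. Defb1 had 0.95 and -0.51 in TRAMP after TmT and oil, against 2.35 and 2.18 in C57BL/6 after TmT and oil, while 7 of the 9 epididymis markers were dim throughout. Their part in the Serpina1f value was not tested.

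Kazal inhibitors, cystatins and the remaining serpins of clades C to I were mostly level. Spink10 was higher in TRAMP after TmT by 1.47 ± 0.30, and its difference after oil was 0.36. Spink2, an acrosin inhibitor of sperm, was lower in TRAMP after TmT, with a difference of -1.09 ± 0.22, and differed by 0.01 after oil. Spink5, an inhibitor of epidermal kallikreins, was well above background on all 4 arrays and stands outside the counts because of its marked spot in C57BL/6 after TmT. It had 2.91 in TRAMP after TmT and 0.79 in TRAMP after oil, against 1.05 in C57BL/6 after oil. Its difference between the lines after oil was -0.26, and TmT minus oil in TRAMP was 2.12, past 2-fold. Spink8 lay between 3.57 and 4.17 on the 4 arrays and Cst3 (cystatin C) between 4.90 and 5.50. Cst6 (cystatin E/M) was dim in TRAMP after TmT and had -4.38 in TRAMP after oil, against -3.83 and -3.66 in C57BL/6 after TmT and oil. Serpinh1, which folds collagen, had 4.68 and 3.49 in TRAMP after TmT and oil, against 3.39 and 4.00 in C57BL/6 after TmT and oil, and so was 1.29 ± 0.20 higher in TRAMP after TmT, with a difference of -0.50 after oil. With normexp the differences after TmT changed sign for Serpinh1, to -0.41, and for Spink2, to 0.01, and that of Spink10 was 0.045. Serpine2 (protease nexin) lay between 1.52 and 2.21 and Serpinf1 between 4.50 and 4.99.

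**Figure D3:**
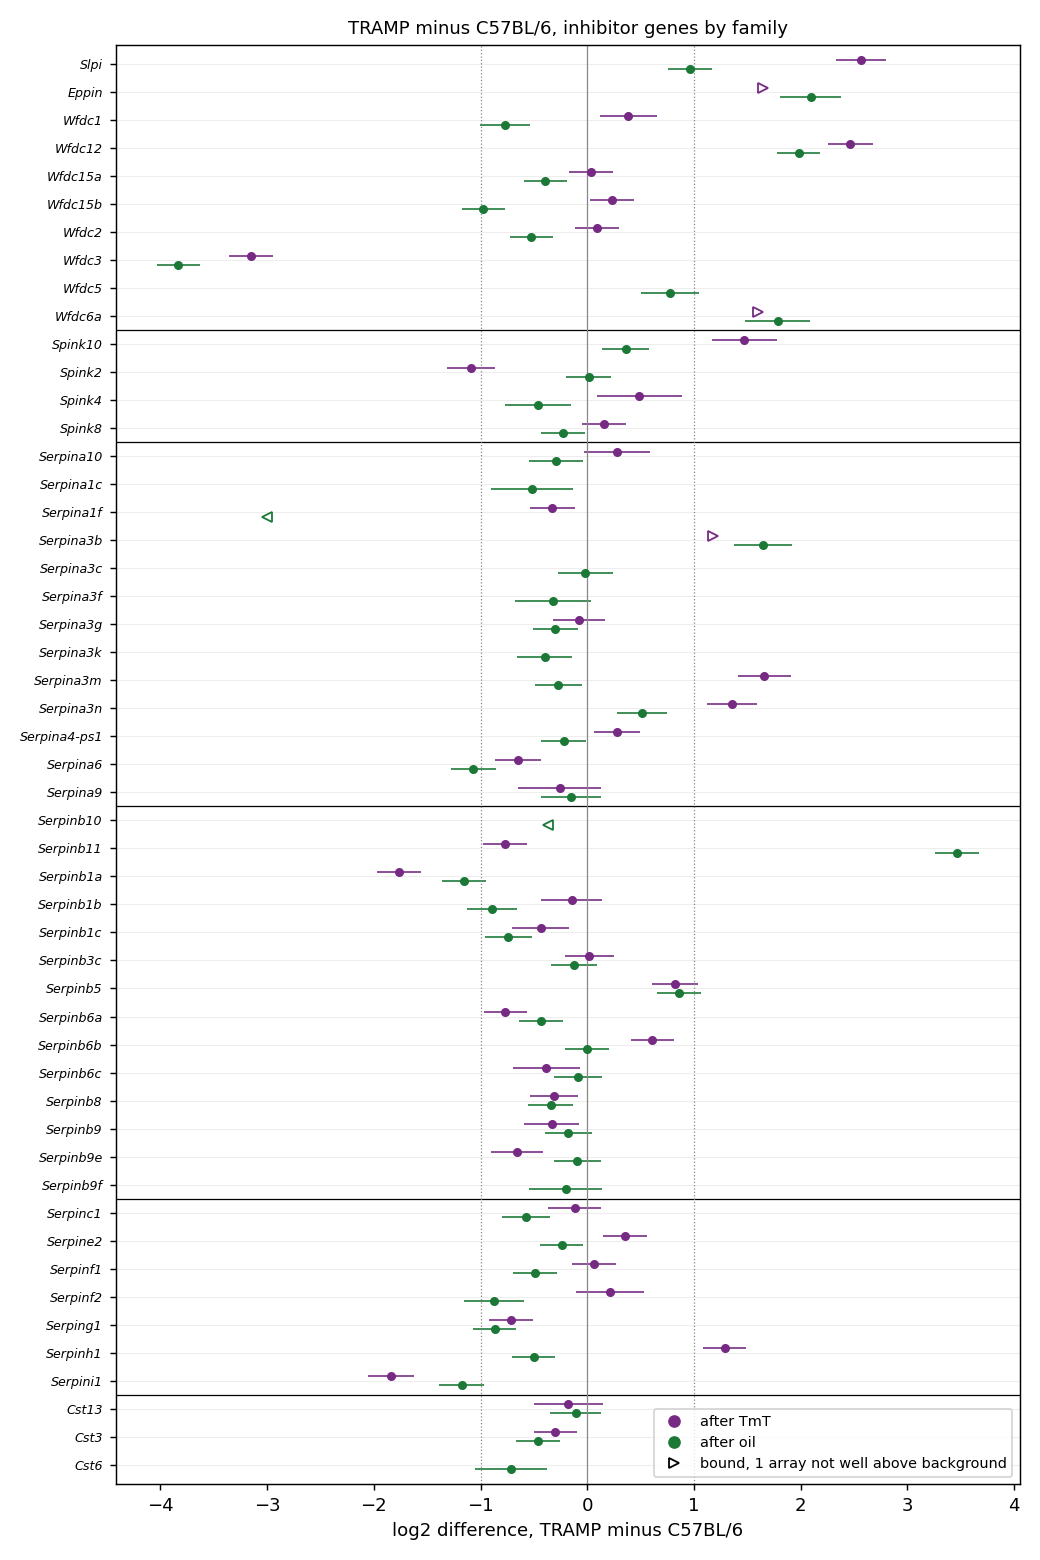
Log2 difference of TRAMP minus C57BL/6 for inhibitor genes measured on both arrays of a pair, after TmT (purple) and after oil (green), grouped by family from WAP at the top to cystatins at the bottom. Bars are the scanner software's error for 1 array per group, triangles are bounds and dotted lines mark 2-fold. Wfdc12 at 2.46 and 1.98 and Wfdc3 at -3.15 and -3.83 lie outside the lines both times.

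The second question was what TmT did within each line. In TRAMP, 42 inhibitor genes were above background on both arrays, 3 were at least 2-fold higher after TmT (8.66% of all genes were) and 3 at least 2-fold lower (4.86% of all). This was 14.3% of the members, against 13.5% of all genes. In C57BL/6, 5 of 47 genes were at least 2-fold higher after TmT (3.12% of all genes) and 6 at least 2-fold lower (2.63% of all). That came to 23.4% of the members, against 5.74% of all genes. These counts rest on the background correction: in C57BL/6 they were 24 higher and 10 lower with normexp, and 1 and 0 when the bright spots were left out before it. In TRAMP they were 21 higher and 11 lower with normexp, and 1 and 1 without the bright spots. The share of all genes past 2-fold was not counted with either form of normexp. These counts therefore show nothing particular to the inhibitors. The median of the members in C57BL/6 was -0.18, against 0.02 for all genes, and 1.10 against 0.35 with normexp. Of the 39 genes measured on all arrays, Wfdc3 alone was at least 2-fold higher after TmT in both lines (0.501% of all genes were) and Serpinb5 alone at least 2-fold lower in both (0.289% of all). With normexp 12 of 36 differences named in the 4 comparisons changed sign, all but 2 of them between TmT and oil. Among them were those of Slpi, Wfdc12, Wfdc3 and Serpinb5 in C57BL/6 and that of Wfdc3 in TRAMP. With normexp without the bright spots, 2 of the 36 changed sign. The TmT differences and the line differences share arrays and are not independent of each other.

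Wfdc3 was higher after TmT by 2.12 ± 0.20 in TRAMP and by 1.44 ± 0.20 in C57BL/6. Serpinb5 (maspin, an epithelial serpin known as a tumour suppressor) had -0.85 in TRAMP after TmT and 0.42 in TRAMP after oil, and -1.67 in C57BL/6 after TmT, against -0.44 in C57BL/6 after oil. TmT minus oil was -1.27 ± 0.21 in TRAMP and -1.24 ± 0.21 in C57BL/6, nearly the same in both lines. With normexp the Wfdc3 difference changed sign in both lines and that of Serpinb5 in C57BL/6. Without the bright spots these differences kept their sign. Basal epithelial markers, cells that also make maspin, summed to 20.3 in TRAMP after TmT and 10.7 in TRAMP after oil, and to 21.5 in C57BL/6 after TmT and 26.7 in C57BL/6 after oil. Their part in the Serpinb5 values was not tested.

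Serpinb11 turned round between the lines. This clade B serpin had -0.27 in TRAMP after TmT, 2.48 in TRAMP after oil, 0.50 in C57BL/6 after TmT and -0.98 in C57BL/6 after oil. The array of TRAMP after oil was the highest, and C57BL/6 after oil the lowest. TmT differed from oil by -2.75 ± 0.21 in TRAMP and by 1.47 ± 0.21 in C57BL/6, and TRAMP differed from C57BL/6 by -0.77 ± 0.21 after TmT and by 3.46 ± 0.21 after oil. The adipocyte sum was also highest in TRAMP after oil, at 248, and its part in the Serpinb11 value was not tested.

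In C57BL/6 the WAP genes that were higher in TRAMP gave lower readings after TmT. Slpi differed by -2.07 ± 0.23 in C57BL/6 and by -0.47 ± 0.21 in TRAMP. Wfdc12 differed by -1.14 ± 0.21 in C57BL/6 and by -0.66 ± 0.20 in TRAMP. Eppin and Wfdc6a were each at least 1.3-fold lower in C57BL/6 after TmT, and differed by -0.83 and -0.56 in TRAMP. The readings of these 4 genes were thus lower after TmT in both lines, with Slpi and Wfdc12 past 2-fold in C57BL/6 only. In C57BL/6 the pairs of Eppin and Wfdc6a hold a dim value, with spot errors of 1.46 and 0.54, and do not settle a direction. With normexp the Slpi and Wfdc12 differences in C57BL/6 changed sign, and without the bright spots they kept it. Whether the 2 lines differ in this was not tested, since each value is 1 array against another.

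Other inhibitors past 2-fold in C57BL/6 were Spink2 at 1.36 ± 0.21, Serpina1f at 1.14 ± 0.21 and Serpini1 at 1.04 ± 0.21, all higher after TmT. Spink10 at -1.11 ± 0.29, Serpina3k at -1.14 ± 0.35 and Serpina3m at -1.03 ± 0.24 were lower after TmT in C57BL/6. The C57BL/6 differences of Spink10, Serpina3k and Serpina3m changed sign with normexp, and that of Serpina3k also did without the bright spots. In TRAMP, Serpina3m differed by 0.90 and Spink10 by 0.00. Serpina3c was at least 2.73-fold lower in C57BL/6 after TmT and at least 1.31-fold lower in TRAMP after TmT. In TRAMP the genes past 2-fold besides Wfdc3, Serpinb5 and Serpinb11 were Serpina3n at 1.27 ± 0.22, Serpinh1 at 1.19 ± 0.20 and Serpina3b at -1.14 ± 0.34. Those of Serpinh1 and Serpina3b changed sign with normexp, and that of Serpina3b also did without the bright spots. Serpina1f was at least 14.0-fold higher after TmT in TRAMP, the widest bound among the inhibitors. The fibroblast sum in TRAMP was 78.7 after TmT and 39.8 after oil, on the arrays where Serpinh1 was higher after TmT, and its part in that value was not tested.

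**Figure D4:**
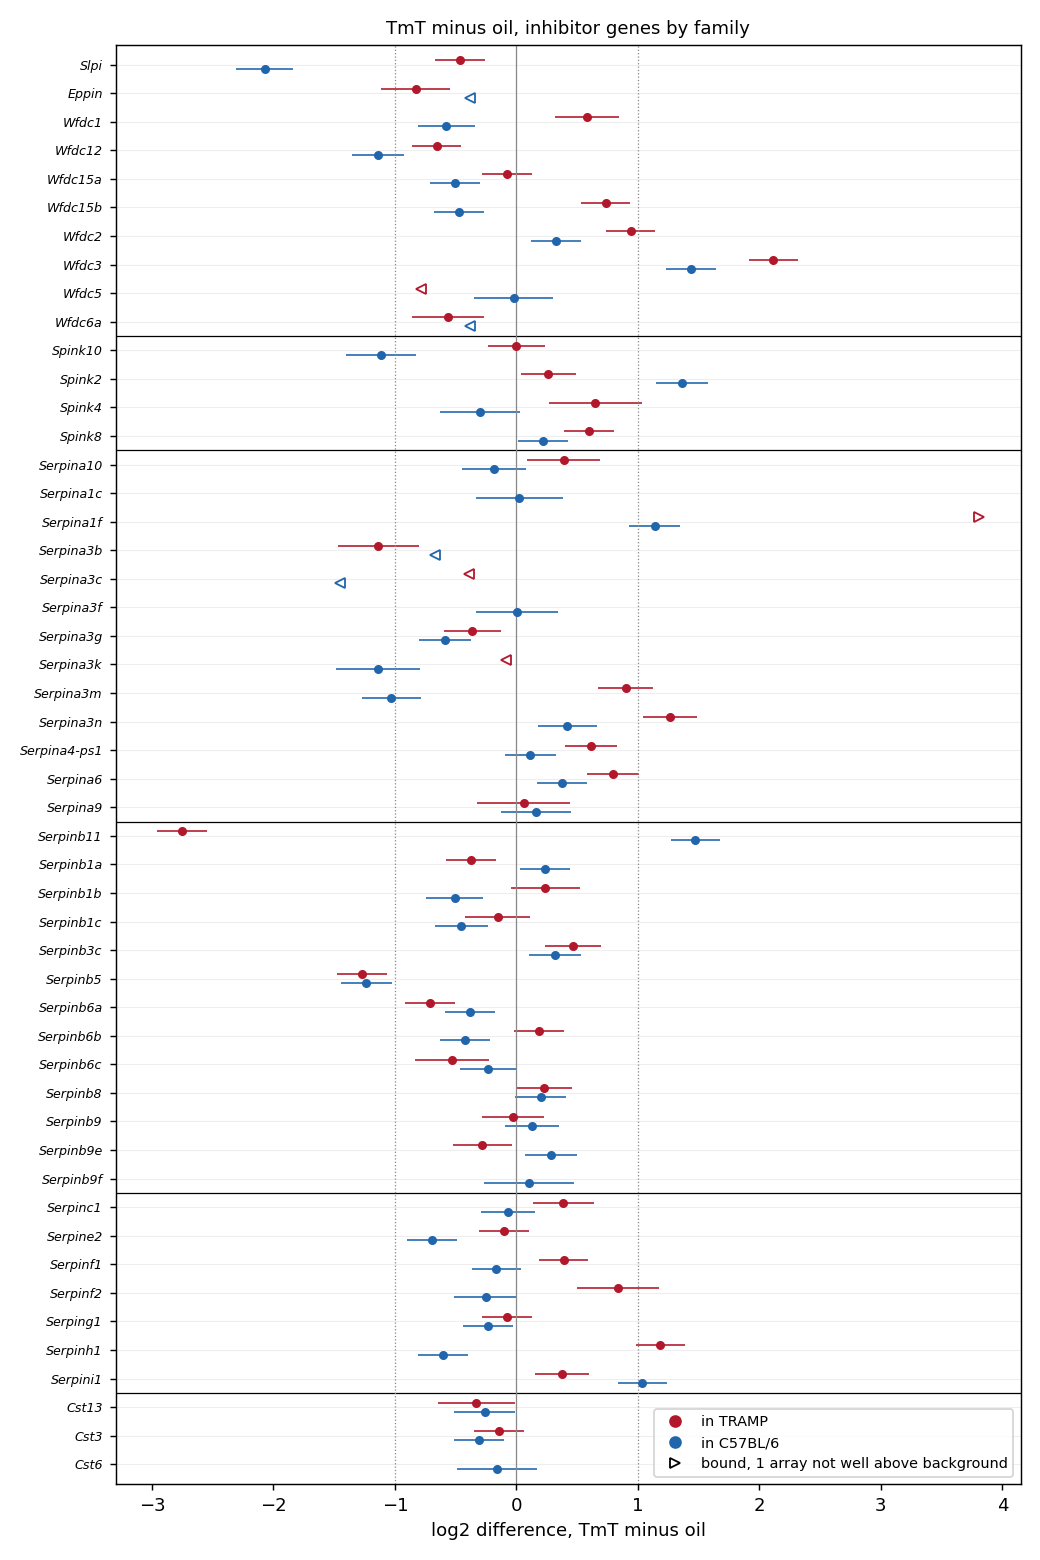
Log2 difference of TmT minus oil for inhibitor genes measured on both arrays of a pair, in TRAMP (red) and in C57BL/6 (blue), by family. Bars are the scanner software's error for 1 array per group, triangles are bounds and dotted lines mark 2-fold. Serpinb11 lies at -2.75 in TRAMP and at 1.47 in C57BL/6, while Wfdc3 and Serpinb5 keep their side in both lines. With normexp, not drawn here, Wfdc3 changed side in both lines and Serpinb5 in C57BL/6.

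The only test the design allows is a model of line and gavage over all 4 arrays, which takes their interaction as the error and leaves 1 residual degree of freedom. With limma, 27 of 19921 genes passed an adjusted p of 0.05 for the line (0.136%), and 0 of the 51 inhibitor genes that entered did. At an unadjusted p under 0.05, 7 inhibitor genes were higher and 7 lower in TRAMP, 27.5% of the 51, against 15.1% of all genes. Wfdc3 had the lowest adjusted p in limma, 0.0586, with a fitted difference of -3.49 ± 0.35 (SE) over both gavages. Wfdc12 had 2.22 ± 0.34 (adjusted p = 0.0871, limma). Eppin and Wfdc6a had adjusted p of 0.0893 and 0.101 in limma, where their dim values in C57BL/6 after TmT enter as measured, so no fitted difference is given for them. Serpini1 had an adjusted p of 0.164, Serpinb1a of 0.167 and Slpi of 0.198 in the same limma model. With the prior variance allowed to follow mean signal, Wfdc3, Wfdc12 and Serpinb1a passed, at adjusted p of 0.00243, 0.0151 and 0.044 in limma, and after median centring Wfdc3 passed at 0.0397. Quantile normalization left 0 calls over all genes. In simulated data this model recovered 0% of differences of log2 size 2 and 80% of size 3, and among the members Wfdc3 alone had a fitted line difference past 3 in size. The simulation changed few genes, held no interaction and drew its variances from the fitted prior. Its shares therefore need not hold for the real genes.

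For TmT against oil over both lines, limma called 0 of 19921 genes (0%) and so 0 of the 51 inhibitors. At an unadjusted p under 0.05, 2 inhibitor genes were higher and 6 lower after TmT, 15.7% of the 51, against 6.28% of all genes. Wfdc3 had a fitted difference of 1.78 ± 0.35 and Serpinb5 one of -1.25 ± 0.32 (SE), with adjusted p of 0.769 and 0.770 in limma. Serpinb11, with opposite values in the lines, had a fitted line difference of 1.35 ± 0.96 (SE).

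Proteases that these inhibitors can meet were followed from a fixed list. Of 31 serine proteases above background on both arrays after oil, 2 were at least 2-fold higher (7.74% of all genes) and 8 lower in TRAMP (7.84% of all), with a median of -0.62 against -0.07 for all genes. The lower ones included C1s, the complement protease that Serping1 inhibits, at -2.50, the leukocyte protease Ctsg (cathepsin G, a target of Slpi and Serpinb1a) at -2.39, and Tmprss2, a prostate membrane protease, at -2.19. After TmT 1 of 27 was at least 2-fold higher in TRAMP (8.45% of all genes) and 2 lower (6.09%). In C57BL/6 0 of 30 were at least 2-fold higher after TmT (3.12% of all genes) and 1 lower (2.63%). In TRAMP 5 of 27 were at least 2-fold higher after TmT (8.66% of all genes) and 0 lower (4.86%), among them Plau (urokinase, which activates plasminogen) at 2.27. Of 11 cysteine proteases, the targets of cystatins, 1 was at least 2-fold higher in TRAMP after oil and 0 in the other comparisons, with 1 at least 2-fold lower after TmT in C57BL/6. In limma 0 of the 32 serine and 0 of the 11 cysteine proteases that entered passed the adjusted threshold for line or gavage.

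Genes with the pattern most like that of a member were sought among 16960 genes above background on all arrays, by the root mean square of the differences in log2 signal over the 4 arrays after removing each gene's mean. For Wfdc12 genes of close pattern were Tpx2, a protein of the mitotic spindle, at 0.14 and the condensin subunit Smc2 at 0.18, besides C130092O11Rik at 0.11 and D2Ertd750e at 0.17. For Slpi they were Brca1 at 0.26 and Lmo4 at 0.27, besides 3 transcripts that the files name by an accession at 0.18 to 0.25. With 4 arrays many genes can share an order, and the likeness is a description.

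Probes of 1 gene did not always give the same value. Of the 80 genes, 22 had more than 1 probe, and in 15 of these at least 1 probe was dim on all arrays. In the 4 genes with a pair of probes above background on all arrays, 10 of 16 differences agreed within 0.5 log2 units between the probes. Serpinb9 differed by -0.18 or -0.84 between the lines after oil, by probe, and Serpinb8 by -0.34 or 0.21.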

How the data were processed

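Total RNA of mouse prostate was measured on Agilent 1-colour (Cy3) expression arrays, 4 arrays on 1 slide with 1 scan time, 1 array per group. The deposited processed signal is a linear intensity per spot, background-subtracted and detrended within the array by Agilent Feature Extraction 10.2.1.3, per the file headers, which record no normalization between arrays. Multiplicative detrending was not applied to the array of TRAMP after TmT, per the file headers. The deposited value table held the same intensities for all 45018 features of each array (medians 13.8, 25.3, 21.3 and 30.2 for TRAMP after TmT, TRAMP after oil, C57BL/6 after TmT and C57BL/6 after oil), so its scale is linear and uncentred.

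From these, control spots and outlier spots (178, 348, 207 and 131) were left out and no spot was saturated. Log2 signals were reduced by the log2 of each array's 75th percentile over all non-control spots, with repeated spots of a probe averaged. Each gene took its brightest probe with values on all 4 arrays. Probe positions are those of the files (mm9). Of 80 member symbols all 80 matched RefSeq, and Spinlw1 was renamed Eppin. Among probes printed 10 times, the median SD between spots was 0.146, 0.193, 0.129 and 0.126 log2 units. For a bound, the bright value was compared with the dim probe's value or, if larger, the array's lowest detected value.

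Limma 3.58.1 in R 4.3.3 fitted line and gavage additively (lmFit, eBayes, Benjamini-Hochberg over the 19921 genes detected on at least 2 arrays, threshold 0.05, prior 4.49 degrees of freedom). Replicate animals are not separated on these arrays, and each group has 1 array. The error behind the p-values is therefore the interaction of line and gavage, drawn towards a prior taken over all genes. It measures neither the spread between mice nor that between arrays of a group. The fit was tested on simulated data. Named genes were the members at least 2-fold different in a pair, bounds of at least 4-fold, those with the lowest limma p-values, and a set of index genes of each family. Alternatives changed the scaling, background correction (normexp, offset 50), detrending, filter, probes per gene, outlier spots, fold threshold and variance prior. Members, lists and tests were chosen with earlier results of these data known. The probes' own sequences, the exon under a probe and the proteins were not used here. One member and 1 gene of similar pattern enter the counts but are not reported here by name.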

Additional observations from a re-analysis of the deposited data

Results flagged for a closer look

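One result stood out because the 2 lines went opposite ways under the same gavage. Serpinb11 differed between TmT and oil by -2.75 in TRAMP and by 1.47 in C57BL/6, on the log2 scale. Each value is 1 array against 1 array, so the difference between the lines was not tested. The opposite signs were kept in the 10 alternatives run for it, and the values closest to 0 were those with normexp, -2.06 in TRAMP and 0.66 in C57BL/6. Among the 10, the deposited values, the kept outlier spots and the dropped background filter could not change the value. Serpinb11 has 1 probe, so the mean over all probes could not change it either. Median centring and the percentile without outlier spots shift every gene of an array by the same amount.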

How the results depend on the processing

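Of 360 comparisons of the 36 named differences with an alternative, 346 kept their sign, of which 58 moved beyond the error of the spots. The other 14 changed sign, 12 of 36 with normexp and 2 of 36 with normexp without the bright spots named below. The deposited values, the kept outlier spots and the dropped background filter could not change a named difference. For a gene with 1 probe, neither could the mean over all probes. Their part of the 346 was therefore fixed beforehand and says nothing about stability. With normexp the line differences after TmT came near 0 for Wfdc12 (0.04), Slpi (0.04), Serpina3m (0.04), Serpina3n (0.04), Spink10 (0.045) and Serpini1 (-0.015), and were -2.78 for Wfdc3 and -0.67 for Serpinb1a. Without the bright spots named below, these were 1.42, 1.10, 0.63, 0.65, 0.61, -0.86, -3.28 and -1.80 in the same order. Serpinb11 kept its opposite signs in all. No paired analysis was possible because each group has 1 array. Counts below are inhibitor genes higher and lower in TRAMP, or after TmT, in the order after oil, after TmT, TmT in TRAMP, TmT in C57BL/6. The share of all genes was not counted under these alternatives, so the counts show nothing particular to the inhibitors. With normexp they were 2 and 2 after oil, 0 higher after TmT, 21 and 11 for TmT in TRAMP, and 24 and 10 for TmT in C57BL/6. Normexp without 27 spots of bright local background gave 2 and 2, 3 and 2, 1 and 1, and 1 and 0. Without the background filter there were 7 lower after oil, 14 and 8 after TmT, and 16 and 8 higher for TmT in TRAMP and C57BL/6. At 3-fold there was 1 lower after oil, 3 higher after TmT, 1 and 1 for TmT in TRAMP, and 0 and 1 for TmT in C57BL/6. Without multiplicative detrending 1 was lower after TmT in TRAMP.

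Signs that turned with normexp were, after TmT between the lines, Serpinh1 (-0.41) and Spink2 (0.014), for TmT in TRAMP Serpina3b (1.23), Serpinh1 (-3.02) and Wfdc3 (-0.31), and for TmT in C57BL/6 Serpina3k (1.46), Serpina3m (1.16), Serpinb5 (0.26), Slpi (0.39), Spink10 (1.20), Wfdc12 (0.40) and Wfdc3 (-0.98). Without the bright spots they were Serpina3b in TRAMP (0.22) and Serpina3k in C57BL/6 (0.079). With normexp the median of all genes for TmT in C57BL/6 was 0.35, against 0.02 as reported.

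Limma's line calls over all genes, 27 as reported, were 76 with median centring, 373 with a variance trend, 1389 with normexp without the bright spots, and 0 with quantile normalization, normexp, no multiplicative detrending, the mean over all probes, outlier spots kept or the percentile without outlier spots. Inhibitor calls for the line were 2 with median centring, 3 with the trend, 1 without the filter and 5 with normexp without the bright spots. For the gavage, normexp called 14855 genes with 44 inhibitors, normexp without the bright spots 350 with 2, and the trend 2 genes in all. The cause of these shifts was not tested.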

Other observations

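Inhibitors outside the 4 name families were followed from a list that held TIMPs, stefins, Kunitz and other inhibitors. After oil 1 of 27 measured genes was at least 2-fold higher in TRAMP (7.74% of all genes) and 5 lower (7.84%), and after TmT 1 of 25 was higher (8.45%) and 5 lower (6.09%). In TRAMP 6 of 25 were at least 2-fold higher after TmT (8.66% of all genes) and 0 lower (4.86%), and in C57BL/6 5 of 29 were higher (3.12%) and 2 lower (2.63%). In limma 1 of the 31 that entered passed for the line, Ahsg (fetuin A), which was dim on both C57BL/6 arrays, and 0 passed for the gavage.

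The 5 genes higher after TmT in C57BL/6 were all stefin A genes, intracellular cystatins that block cathepsins and are abundant in mouse neutrophils. Of 6 leukocyte markers measured in C57BL/6, 0 were at least 2-fold higher after TmT and 1 was lower, S100a9 at -1.71. The part of leukocytes in the stefin values was not tested. Csta had -0.10 in TRAMP after TmT, -1.34 in TRAMP after oil, 1.66 in C57BL/6 after TmT and -0.51 in C57BL/6 after oil. Stfa1 had -2.25, -3.43, -0.54 and -2.66 in the same order, and Stfa3 -1.68, -2.45, -0.11 and -1.47. All 3 were highest in C57BL/6 after TmT and lowest in TRAMP after oil. In C57BL/6 the TmT differences were 2.17 for Csta, 2.25 for BC100530, 2.12 for Stfa1, 2.05 for Stfa2l1 and 1.36 for Stfa3, and in TRAMP they were 1.24 for Csta, 1.17 for BC100530, 1.18 for Stfa1 and 0.76 for Stfa3, while Stfa2l1 was dim in TRAMP after oil. TRAMP minus C57BL/6 after TmT was -1.77, -1.72, -1.71, -2.00 and -1.58 for Csta, BC100530, Stfa1, Stfa2l1 and Stfa3 in that order. Stefin A genes are close copies and their probes may bind each other's transcripts, so these 5 values are not 5 independent observations. The genes were singled out after their values were seen.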
